A study of Homo sapiens with 30 samples.

Results

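Binding of SAP30 was set against binding of SIN3A, gene by gene and summit by summit, in the parental MDA-MB-231 line. MDA-MB-231 is an established triple-negative breast cancer line with mesenchymal features. The members were the 4 chromatin immunoprecipitation sequencing (ChIP-Seq) libraries whose labels give the SAP30 antibody from Bethyl or the SIN3A antibody from Abcam in this line, 2 replicates each. They were 4 of the 18 libraries with a list of peaks, in a series of 30 samples. The study asked whether SAP30 and the SIN3 scaffold proteins sit at genes that drive tumor progression, and it also profiled H3K4me3, H3K9Ac, SIN3B and RNA polymerase II (Pol II), some of them also in a SAP30-knockout line. All cells compared below were unmodified, untreated parental cells. The labels name 1 input sample for SAP30 and SIN3A together under each replicate number. Nothing in the labels says that replicates came from separate cultures, so a p-value measures only the spread between these libraries, which may be technical.

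SIN3A is the scaffold of a corepressor complex that carries the histone deacetylases HDAC1 and HDAC2 and has no DNA-binding domain of its own. It is brought to promoters by sequence-specific factors such as the MAX partners of the MXD family, and SAP30 is a small subunit that binds the scaffold and stabilizes its contact with the deacetylases. H3K4me3 and Pol II mark promoters in use, and H3K9Ac marks acetylated chromatin.

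Each library had its own list of peak summits, each a single base where the peak caller of the authors saw the maximum of a peak. A summit was ranked within its own list by its deposited score, from 0% for the strongest to 100% for the weakest. A gene was given a protein where a library had a summit within 1000 bp of a transcription start site of the gene, and the rank of a gene is that of its best such summit. The lists differ in length, so a rank in a full SAP30 list and one in a full SIN3A list are given side by side and are not compared.

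The sequences under 3 kinds of promoter are printed first, from the GRCh37 reference and in the direction of transcription. Capitals run from the first to the last summit of the libraries named, and the flanks are at most 50 bp. One set holds promoters at which all 4 summits fell together near the start site: chr5:137514739-137514830 (plus strand) at KIF20A, a kinesin of cytokinesis, chr17:8113873-8113972 (minus strand) at AURKB, the kinase of the chromosomal passenger complex, chr17:2304369-2304460 (minus strand) at MNT, a MAX partner that recruits SIN3, and chr19:10812040-10812170 (plus strand) at QTRT1, a subunit of a tRNA-modifying enzyme. Each of these 4 windows spans an annotated start site. The 4 summits spanned 23 bp at KIF20A, 37 bp at AURKB, and 30 bp at both MNT and QTRT1. QTRT1 holds the E-box letters CACGTG.
KIF20A, SAP30 and SIN3A: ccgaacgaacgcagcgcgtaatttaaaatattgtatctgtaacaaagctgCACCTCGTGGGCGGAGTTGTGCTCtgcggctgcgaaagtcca
AURKB, SAP30 and SIN3A: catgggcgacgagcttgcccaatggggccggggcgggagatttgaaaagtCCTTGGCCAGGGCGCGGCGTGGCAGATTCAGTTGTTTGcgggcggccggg
MNT, SAP30 and SIN3A: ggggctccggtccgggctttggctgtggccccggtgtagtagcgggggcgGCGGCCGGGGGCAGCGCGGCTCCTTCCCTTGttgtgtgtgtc
QTRT1, SAP30 and SIN3A: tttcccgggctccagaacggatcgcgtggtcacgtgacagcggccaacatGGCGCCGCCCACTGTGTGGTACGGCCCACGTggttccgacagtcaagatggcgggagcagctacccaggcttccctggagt

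Another set holds promoters with a well-ranked SAP30 summit in both libraries and no SIN3A summit within 3000 bp. These are chr20:47835956-47836022 (plus strand) in the first exon of DDX27, an RNA helicase of ribosome assembly, chr17:39845731-39845855 (plus strand) downstream of the start site in an annotated exon of EIF1, a factor of start codon choice, and chr9:133320241-133320345 (plus strand) just upstream of ASS1, an enzyme of arginine synthesis. The 2 SAP30 summits lay 39 bp, 24 bp and 4 bp apart.
DDX27, SAP30: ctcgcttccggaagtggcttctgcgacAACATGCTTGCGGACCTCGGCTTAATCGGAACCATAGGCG
EIF1, SAP30: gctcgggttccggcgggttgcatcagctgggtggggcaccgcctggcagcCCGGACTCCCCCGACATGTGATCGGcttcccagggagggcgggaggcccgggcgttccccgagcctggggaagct
ASS1, SAP30: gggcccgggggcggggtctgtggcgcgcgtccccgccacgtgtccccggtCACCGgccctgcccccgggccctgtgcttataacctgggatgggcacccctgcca

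The last set holds sites at which SAP30 had its nearest summits over 1000 bp away from a start site that carried SIN3A. SIN3A had further summits within 20 bp of the SAP30 summit of the same replicate number at each of these 3 sites. These are chr4:184427494-184427630 (plus strand) in an intron of ING2, a reader of H3K4me3 in the SIN3 complex, chr14:75743883-75744117 (plus strand) upstream of FOS, an AP-1 factor, and chr3:20083088-20083195 (plus strand) in an intron of KAT2B, a histone acetyltransferase.
ING2, SAP30: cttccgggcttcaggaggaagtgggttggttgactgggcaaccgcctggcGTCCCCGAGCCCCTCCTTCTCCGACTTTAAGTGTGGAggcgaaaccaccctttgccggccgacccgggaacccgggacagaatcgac
FOS, SAP30: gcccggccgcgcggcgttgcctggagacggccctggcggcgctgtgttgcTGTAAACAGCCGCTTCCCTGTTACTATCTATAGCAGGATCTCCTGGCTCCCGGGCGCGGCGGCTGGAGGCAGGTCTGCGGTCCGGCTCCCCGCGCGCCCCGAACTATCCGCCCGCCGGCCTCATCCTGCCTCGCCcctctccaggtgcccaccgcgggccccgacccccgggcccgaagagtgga
KAT2B, SAP30: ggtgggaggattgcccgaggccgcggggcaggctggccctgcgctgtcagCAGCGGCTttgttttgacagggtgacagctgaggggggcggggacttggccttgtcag

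The SAP30 lists held 35001 and 35007 summits in replicates 1 and 2, and the SIN3A lists held 11115 and 10861. The sequencing depth is not known, so these lengths cannot be put on a common scale. Within 1000 bp of an annotated start site lay 43.7% and 47.8% of the SAP30 summits against 90.6% of the summits of each SIN3A library. The 2 replicates shared a position to within 1000 bp for 82.2% and 87.4% of the SAP30 summits and for 79.5% and 82.2% of the SIN3A summits. Many summits shared a score with another, 92.6% to 95.6% of a list, and then shared a rank. As a check of the cell type, Pol II was at 6 of 7 mesenchymal marker promoters in both parental libraries, with SPARC at none. It was at 2 of 8 luminal or epithelial marker promoters, EPCAM and ERBB3, and in neither library at the other 6.

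Most regions that carried SIN3A also carried SAP30, while the reverse did not hold. Summits within 1000 bp of each other were merged into 34084 regions, and a consensus region of a protein had a summit of both replicates. SAP30 had 24637 consensus regions and SIN3A had 6040, and 5912 regions had a summit of all 4 libraries. Of these shared regions 5577 (94.3%) were at promoters. Of the 15426 regions with SAP30 in both libraries and SIN3A in neither, 31.6% were at promoters, and of the 3299 with SIN3A in 1 library 81.1% were. A consensus SIN3A region without any SAP30 summit was found 59 times.

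At the level of genes, both libraries of SAP30 marked 12298 of the 20098 protein-coding genes (61.2%), and both libraries of SIN3A marked 6323 (31.5%). Single libraries marked 12609 and 12525 genes for SAP30 and 7763 and 7586 for SIN3A. Both SAP30 values lay above both SIN3A values, with an exact two-sided permutation p of 0.333, the smallest that 2 libraries against 2 allow. Both proteins were at 6216 genes. SAP30 stood alone at 3454 genes (17.2%), with no SIN3A summit of either library, and 2628 more had SIN3A in 1 library. SIN3A without SAP30 within 1000 bp was found at 43 genes (0.214%). Of the other genes, 7196 had neither protein, 422 had SAP30 in 1 library only, 23 had SIN3A in 1 library only, 64 had SIN3A in both libraries with SAP30 in 1, and 52 had each protein in 1 library.

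Presence of SIN3A followed the rank of SAP30. Among the 1779 genes with a mean SAP30 rank from 0% to 5%, SIN3A was present in both libraries at 98.9%. The share was 90.1% for ranks from 5% to 10%, 73.4% from 10% to 15%, 52.6% from 15% to 20% and 29.1% from 20% to 25%. It fell to 4.34% from 30% to 40% and to 0.64% from 40% to 50%. The 2 SIN3A libraries gave almost the same curve, for instance 72.1% and 69.6% for ranks from 15% to 20%. One gene with a SAP30 rank under 5% lacked SIN3A in both libraries, and it was DDX27. With the SAP30 lists limited by rank to the length of the shortest SIN3A list, the number of genes with SAP30 alone was 917 in place of 3454, so that the count depends on the length of the lists.

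**Figure D1:**
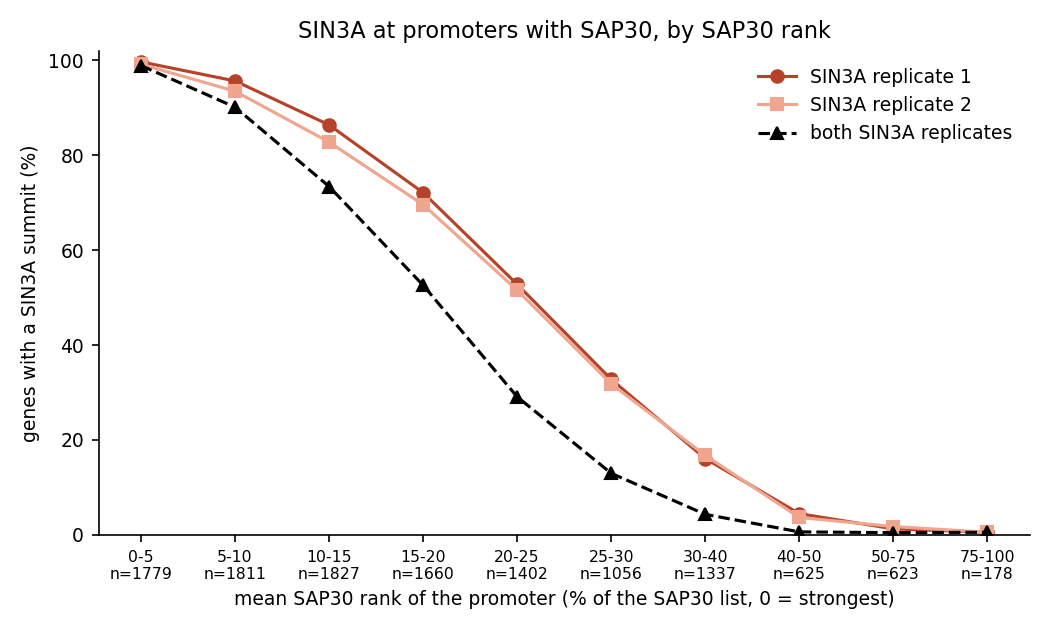
Share of protein-coding genes with a SIN3A summit within 1000 bp of a start site (y axis, %) against the mean SAP30 rank of the promoter (x axis, % of the SAP30 list, in 10 ranges with the number of genes n under each). Circles and squares are SIN3A replicates 1 and 2, and triangles are genes with both; the share with both runs from 98.9% in the first range to 0.562% in the last.

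Promoters with both proteins differed from those with SAP30 alone in other readouts of the parental line, none of which chose the classes. SIN3B, the paralog of SIN3A, was present in both libraries at 97.6% of genes with both proteins, at 88.6% of those with SIN3A in 1 library and at 51.6% of those with SAP30 alone, against 51.7% of all genes. Pol II was at 98.8%, 96.1% and 76.4%, against 57.7% of all genes. H3K4me3 was at 98.9%, 98.5% and 95.8%, against 63.8% of all genes, and H3K9Ac at 98.7%, 98.2% and 90.9%, against 61.4%. A divergent neighbor, a gene transcribed away from the same promoter, was annotated for 22.7%, 14.2% and 7.67%, against 11.3% of all genes. The median SAP30 ranks of the 3 classes were 9.08%, 20.8% and 35.7%, so these shares moved with SAP30 rank as well. At SAP30 ranks from 15% to 20%, SIN3B was at 96.3% of 873 genes with both proteins and at 82.9% of 181 genes with SAP30 alone. The corresponding shares for Pol II were 98.9% and 93.4%, and for a divergent neighbor 16.4% and 9.94%. No test was run on these shares, since genes are not replicates.

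The 10 genes with the best mean SAP30 rank and no SIN3A summit within 3000 bp had SAP30 ranks between 1.10% and 12.2%. DDX27 ranked at 8.90% and 1.10% in SAP30 replicates 1 and 2, and its nearest SIN3A summits were 31082 bp and 31132 bp away. EIF1 ranked at 7.04% and 9.37%, with its SAP30 summits 666 bp and 642 bp downstream of a start site. CD68, a lysosomal membrane protein of macrophages, ranked at 5.18% and 12.2% and had the nearest SIN3A of the 10, at 5543 bp and 5565 bp. In all of these libraries SAP30 lay in the better-ranked part of its list while SIN3A had no summit. The others were TMEM255B, PHACTR1, a regulator of protein phosphatase and actin, the neuropeptide gene NMU, ASS1, LHFPL6, the kinase gene PSKH1 and the cilium gene RSPH1. SIN3B, H3K4me3, H3K9Ac and Pol II were present in both libraries at 9 of the 10. ASS1 was the other one. It ranked at 8.32% and 8.18% for SAP30 and had H3K4me3 and H3K9Ac in both libraries, but SIN3B and Pol II in neither. ASS1 holds the E-box letters beside its SAP30 summits, in the sequence printed above.

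These 10 genes were the extreme of their class. The 3349 genes with SAP30 in both libraries and no SIN3A within 3000 bp had a median mean SAP30 rank of 35.9%, and 17 of them were under 10%. In the better-ranked 25% of all SAP30 consensus regions, 6159 regions, there were 260 without SIN3A, and 198 of these were at promoters. In the best 10% there were 8. Without any single library the count of 260 was between 585 (without SAP30 replicate 1) and 843 (without SIN3A replicate 1), with 712 without SAP30 replicate 2 and 685 without SIN3A replicate 2. With SAP30 lists of the length of the shortest SIN3A list it was 6.

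At the other end stood promoters that were near the top of all 4 lists. NPAS4, a neuronal activity factor, held the best mean rank over the 4 lists, at 0.00143% in both SAP30 libraries and at 0.0045% and 0.0046% in the SIN3A libraries. Its summits lay 744 bp to 758 bp from the start site, and SIN3B was there in both libraries while H3K4me3, H3K9Ac and Pol II were in neither. QTRT1 ranked at 0.0757% and 0.0157% for SAP30 and at 0.0135% and 0.0138% for SIN3A. The shared promoter of CENPP, a centromere protein, and NOL8, a nucleolar protein, ranked at 0.0386% and 0.01% for SAP30 and at 0.0405% and 0.101% for SIN3A. All 4 libraries placed these promoters in the extreme top of their lists. The next were the divergent pairs POLR1G with PPP1R13L and BOP1 with HSF1, then CCDC86 and KIF9. POLR1G encodes a subunit of RNA polymerase I, and HSF1 is the heat shock factor.

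Genes of mitosis had the best median rank of the 26 gene groups for both proteins. All 24 listed genes had SAP30 and SIN3A in both libraries, with a median rank of 1.56% for SAP30 and 8.37% for SIN3A. Over all protein-coding genes marked in both libraries these medians were 17.1% and 35.9%. KIF20A ranked at 0.0557% and 0.0814% for SAP30 and at 0.463% and 0.198% for SIN3A. AURKB ranked at 0.05% and 0.0871% for SAP30 and at 0.684% and 2.43% for SIN3A. Both genes were within the first 5% of every list. The weakest of the group was NDC80, a kinetochore protein, at 9.20% and 12.6% for SAP30 and at 12.6% and 6.28% for SIN3A. Of 37 genes of DNA replication, all had SAP30 and 28 had SIN3A, with medians of 5.94% and 18.3%. Their best member was MCM10, a factor of the replicative helicase, at 0.00714% and 0.0386% for SAP30 and at 0.202% and 0.944% for SIN3A.

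**Figure D2:**
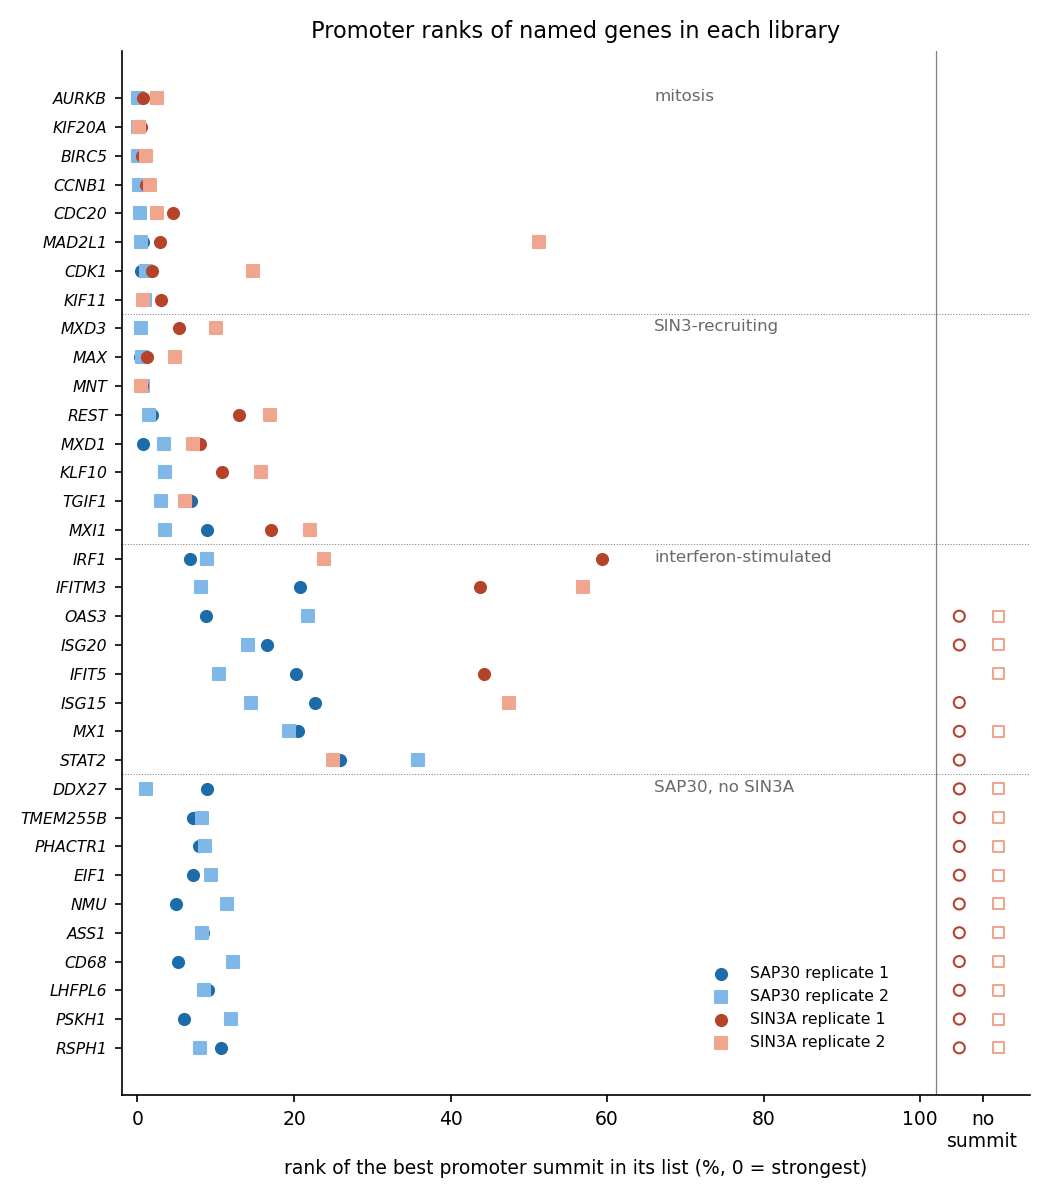
Rank of the best promoter summit (x axis, % of its own list, 0 is strongest) in each of the 4 libraries, for 8 members each, among the best by SAP30 rank, of 3 gene groups (mitosis, SIN3-recruiting factors and interferon-stimulated genes) and for the 10 genes named for SAP30 without SIN3A. The first listed interferon-stimulated gene is not plotted. Blue is SAP30 and red is SIN3A, circles are replicate 1, squares are replicate 2, and open symbols at the right mark a SIN3A library with no summit within 1000 bp; both SIN3A libraries have no summit at all 10 genes of the lowest block.

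Most genes for transcription factors known to bring SIN3 to DNA had both proteins at their own promoters. Of 13 such genes all had SAP30 and 11 had SIN3A in both libraries, with medians of 4.92% and 13.3%. MNT ranked at 0.524% and 0.72% for SAP30 and at 0.544% and 0.391% for SIN3A, and MAX at 0.367% and 0.598% and at 1.17% and 4.74%. MXD3 ranked at 0.31% and 0.436% for SAP30 and at 5.34% and 10.1% for SIN3A. MNT and MAX were within the first 5% of every list. REST, the repressor of neuronal genes, ranked at 1.83% and 1.48% for SAP30 and at 12.9% and 17.0% for SIN3A. FOXK1 had SIN3A in replicate 1 only.

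Of 21 genes for subunits of the SIN3 complex, 19 had SAP30 and 15 had SIN3A in both libraries, with medians of 17.0% and 36.5%. The SAP30 gene ranked at 1.36% and 5.12% for SAP30 and at 0.445% and 18.3% for SIN3A. ING1, a reader of H3K4me3, ranked at 3.47% and 7.58% for SAP30 and at 55.5% and 57.0% for SIN3A. SAP130, MORF4L1 and RBBP7 had SAP30 in both libraries and no SIN3A. The SIN3A gene had SAP30 in replicate 2 only, at 14.9%, and SIN3A in both, at 28.3% and 28.8%. ING2 had SIN3A within 1000 bp of its start site, at 14.4% and 11.4%, and SAP30 farther away. HDAC1 ranked at 18.7% and 15.4% for SAP30 and at 17.9% and 73.4% for SIN3A, and HDAC2 at 19.7% and 26.4% and at 81.8% and 52.8%.

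Other groups separated the proteins in different ways, always read against the 61.2% of all genes with SAP30 and the 31.5% with SIN3A. Of 18 heat shock genes all had SAP30 and 15 had SIN3A, with medians of 5.55% and 18.8%. HSF1 led them, at 0.00429% and 0.0243% for SAP30 and at 0.0945% and 0.29% for SIN3A, and HSPA1A was last, at 55.8% and 52.5% for SAP30 with no SIN3A. Of 79 cytosolic ribosomal protein genes 78 had SAP30 and 52 had SIN3A, with medians of 14.5% and 37.6%. Of 78 mitochondrial ribosomal protein genes all had SAP30 and 36 had SIN3A. Of 75 oxidative phosphorylation genes 74 had SAP30 and 30 had SIN3A. The 33 proteasome genes held SAP30 at 32 and SIN3A at 24.

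Interferon-stimulated genes had SAP30 more often than SIN3A. Of 29 measured genes 23 had SAP30 in both libraries, at a median SAP30 rank of 43.1%, and 3 had SIN3A. SAP30 with SIN3A in neither library was found at 17 of the 29, against 17.2% of all genes. That share takes no account of SAP30 rank. Among all genes with SAP30 in both libraries at mean ranks from 40% to 50%, 92.5% had SIN3A in neither library. The lowest-ranked with SAP30 in both was IFITM1, an antiviral membrane protein, at 66.1% and 85.7%. Of 63 replication-dependent histone genes 33 had SAP30, 4 had SIN3A and 28 had neither. Of 246 zinc finger genes of chromosome 19, 208 had SAP30 and 81 had SIN3A.

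By the rule of both libraries within 1000 bp, AP-1 factors went the other way, with SIN3A at 11 of 13 genes and SAP30 at 8. FOS was the 1 gene of the list with SIN3A and no SAP30 within 1000 bp, and its nearest SAP30 summits lay 1462 bp and 1596 bp upstream. FOSL1 ranked at 1.73% and 3.02% for SAP30 and at 3.39% and 7.26% for SIN3A. JUN, JUNB and MAFK, named after their values were seen, had SIN3A in both libraries and SAP30 in replicate 2 only. At JUNB the SAP30 rank in that library was 3.07%, beside SIN3A ranks of 6.10% and 4.80%. Of 14 genes for COMPASS subunits, which write H3K4 methylation, 13 had SAP30 and 8 had SIN3A. KMT2A, the MLL1 methyltransferase, led them at 0.346% and 0.733% for SAP30 and at 10.1% and 2.1% for SIN3A.

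Gene groups with tissue-restricted expression had few members with SIN3A. SIN3A was at 3 of 81 cytokine and chemokine genes, 3 of 44 collagens, 1 of 23 matrix metalloproteinases, 1 of 39 HOX genes and 1 of 18 luminal and epithelial genes. SAP30 was at 16, 16, 8, 7 and 10 of them. Of 16 mesenchymal genes 12 had SAP30 and 5 had SIN3A, and CD44, a hyaluronan receptor, led with 9.67% and 5.30% for SAP30 and 13.5% and 51.3% for SIN3A. Of 20 cell motility genes all had SAP30 and 14 had SIN3A. Of 24 angiogenic ligands and receptors 14 had SAP30 and 3 had SIN3A. Of 22 Notch pathway genes 17 had SAP30 and 9 had SIN3A, and of 26 tight junction genes 11 and 3.

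The genes that the study followed as coactivated or corepressed by SAP30 and SIN3 fell into the class with SAP30 alone in 6 of 9 cases, against 17.2% of all genes. That share takes no account of SAP30 rank. Among all genes with SAP30 in both libraries, 71.5% at mean ranks from 30% to 40% had SIN3A in neither library. The share was 92.5% from 40% to 50% and 97.4% from 50% to 75%. RDX, a linker of actin to the membrane, had both proteins, at 4.55% and 1.54% for SAP30 and at 22.7% and 7.32% for SIN3A. IPO13, a nuclear import receptor, also had both, at 4.50% and 2.81% for SAP30 and at 20.6% and 19% for SIN3A. CLDN1, a tight junction protein, ranked at 38.3% and 31.8% for SAP30, and PDGFD, a platelet-derived growth factor, at 24.8% and 50.6%. ADM2, an adrenomedullin peptide, ranked at 47.2% and 68.2%, and NOTCH3 at 86.8% and 68.5%. HSPA6, an inducible heat shock protein, ranked at 28.2% and 37.0%, and ARTN, a neurotrophic ligand, at 41.6% and 56.5%. PDGFB had SAP30 in replicate 2 only, at 61.8%. None of these 7 had a SIN3A summit within 1000 bp in either library, and for ARTN the nearest one in replicate 1 was 10808 bp away. The study chose these genes on expression in the same line, so they are no independent sample. A summit absent from a list was not called and may still carry signal below the threshold of the peak caller.

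Whether the 2 proteins ranked the same promoters differently was examined at the 5912 shared regions, with ranks taken again among these regions. Spearman's rank correlation over the regions was 0.778 between the SAP30 libraries, 0.445 between the SIN3A libraries, and 0.527 to 0.62 between a SAP30 and a SIN3A library. The 4 libraries share the same regions and ranks near the threshold carry little information, so these values are a description. The median gap between replicates was 10.7 percentage points of rank for SAP30 and 19 for SIN3A, and the median gap between the mean ranks of the proteins was 12.8. The last is a gap between means of 2 libraries and is not on the scale of the others. Both SAP30 libraries ranked above both SIN3A libraries at 1110 regions (18.8%), and the reverse was found at 1222 (20.7%). Complete orders of this kind also arise without a difference between the proteins, so these shares are a description.

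One region passed the test of rank across all shared regions (limma, Benjamini-Hochberg adjustment over 5912 regions, 0.0169% called). It was chr6:74230642-74232108 at EEF1A1, the elongation factor that brings aminoacyl-tRNA to the ribosome. Its SAP30 summits ranked at 0.0214% and 0.00714% in the full lists, and its SIN3A summits at 32.8% and 48.0%. Among shared regions it ranked at 0.11% and 0.0423% for SAP30 and at 49.6% and 65.1% for SIN3A. SAP30 and SIN3A did not overlap. The difference was 3.39 ± 0.33 (SE, 2 libraries each) on the normal-score scale, SAP30 minus SIN3A with positive values for a better SAP30 rank, with an adjusted p of 0.0018 in limma. EEF1A1 has many processed pseudogenes, and how reads with several matches were handled is not given in the sources used here. Without SAP30 replicate 2 the call was lost, and without SIN3A replicate 1 or 2 the count was 781 or 602, so the count rests on single libraries. With the replicate number as a block in the same fit, 50 regions passed (0.846%), 21 in favor of SAP30 and 29 in favor of SIN3A. The blocked fit used a variance fitted over all regions, so the replicate spread of a single region did not enter its p-value. LSM4 passed it with SIN3A at 12.2% and 99.9% among shared regions. At an unadjusted p under 0.05 there were 471 regions without the block and 662 with it.

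**Figure D3:**
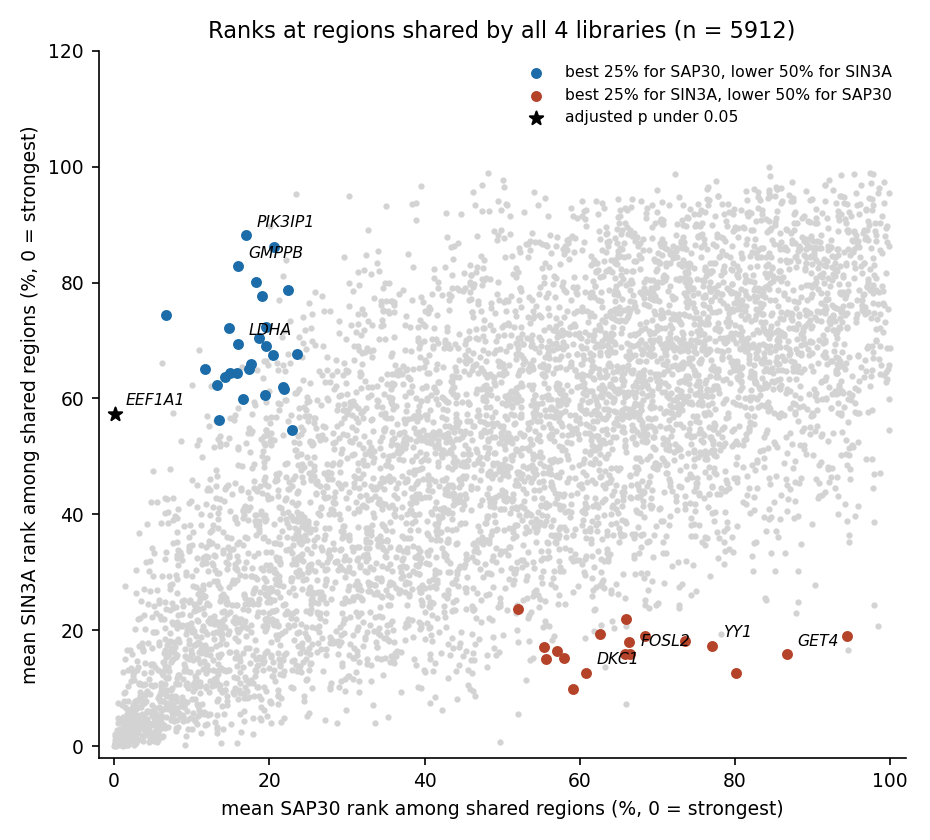
Mean rank among the 5912 shared regions in the SIN3A libraries (y axis, %, 0 is strongest) against that in the SAP30 libraries (x axis, %, 0 is strongest). Each point is a region, colored points rank in the best 25% for both libraries of one protein and in the lower 50% for both of the other (27 for SAP30, 18 for SIN3A), and the star marks EEF1A1, at a SAP30 rank near 0 and a SIN3A rank between 49.6% and 65.1% in single libraries.

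Ranks that were high for one protein and low for the other were uncommon. Both SAP30 libraries placed 27 regions in the best 25% that both SIN3A libraries placed in the lower 50%, and 18 regions showed the reverse, while 604 were in the best 25% of all 4. None of the 45 passed the adjusted threshold without the block (limma, lowest adjusted p 0.344). With the block 7 passed, on the variance fitted over all regions. Genes are named here after their values were seen, with ranks among shared regions. PIK3IP1, an inhibitor of PI3-kinase, ranked at 10.9% and 23.1% for SAP30 and at 98.1% and 78.3% for SIN3A. GMPPB, an enzyme of mannose activation, ranked at 17.7% and 14.3% for SAP30 and at 73.4% and 92.3% for SIN3A. LDHA, lactate dehydrogenase, ranked at 21.6% and 10.3% for SAP30 and at 82.6% and 56.3% for SIN3A. The choice of regions fixes that the proteins do not overlap. In the other direction, YY1, a zinc finger transcription factor, ranked at 88.7% and 65.4% for SAP30 and at 12.4% and 22.3% for SIN3A. FOSL2, an AP-1 factor, ranked at 54.0% and 79.0% for SAP30 and at 24.2% and 7.56% for SIN3A. GET4, a chaperone of membrane protein insertion, ranked at 94.5% and 78.9% for SAP30 and at 11.1% and 20.7% for SIN3A. The full-list SAP30 ranks of GET4 were 24.8% and 17.1%, since most of the weaker SAP30 summits are not in shared regions.

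Among the 50 regions past the threshold with the block, those in favor of SAP30 included the start sites of SHCBP1, MCM10, PIK3IP1 and the divergent pair CENPQ and MMUT, again named after their values were seen. SHCBP1, a protein of the mitotic midbody, ranked at 0.0157% and 0.00428% in the full SAP30 lists and at 0.814% and 1.53% in those of SIN3A. Those in favor of SIN3A included QTRT1, CCDC86, SMAD7 and FLNA. QTRT1 and CCDC86 were near the top for both proteins, as were SHCBP1 and MCM10 on the other side. Among shared regions QTRT1 ranked at 0.431% and 0.093% for SAP30 and at 0.0254% in both SIN3A libraries. CCDC86 ranked there at 0.736% and 1.65% for SAP30 and at 0.0423% and 0.0761% for SIN3A. Such calls reflect small differences of rank within the top of the lists. SMAD7, an inhibitor of TGF-beta signaling, ranked at 31.8% and 32.3% in the full SAP30 lists and at 7.19% and 17.4% in those of SIN3A. FLNA, the actin crosslinker filamin A, ranked at 28% and 33.3% for SAP30 and at 17.9% and 10.9% for SIN3A.

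Where both proteins were present, the distance between their summits lay between that of SAP30 replicates and that of SIN3A replicates. At the 2147 shared regions with a single summit in each library, the median distance was 36 bp between the SAP30 libraries, 59 bp between the SIN3A libraries and 53 bp to 55 bp for the 4 pairs between the proteins. Within 100 bp lay 83.9% of the SAP30 replicate pairs, 66.6% of the SIN3A replicate pairs and 72.1% to 74.7% of the pairs between the proteins. Over 500 bp lay 1.3%, 3.12% and 2.19% to 2.52%. At all 5912 shared regions the median distance between best-ranked summits was 42 bp for SAP30 replicates and 88 bp for SIN3A replicates. Between the proteins it was 67 bp to 71 bp. Distances to the nearest summit were also taken over the full lists, where one lay within 1000 bp. Their medians were 57 bp, 87 bp and 81 bp to 87 bp in the same order. The 6 pairs share libraries, so no test was run. Regions with more than 1 summit were commoner for SIN3A, 35.7% and 35.9%, than for SAP30, 15% and 24.9%.

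**Figure D4:**
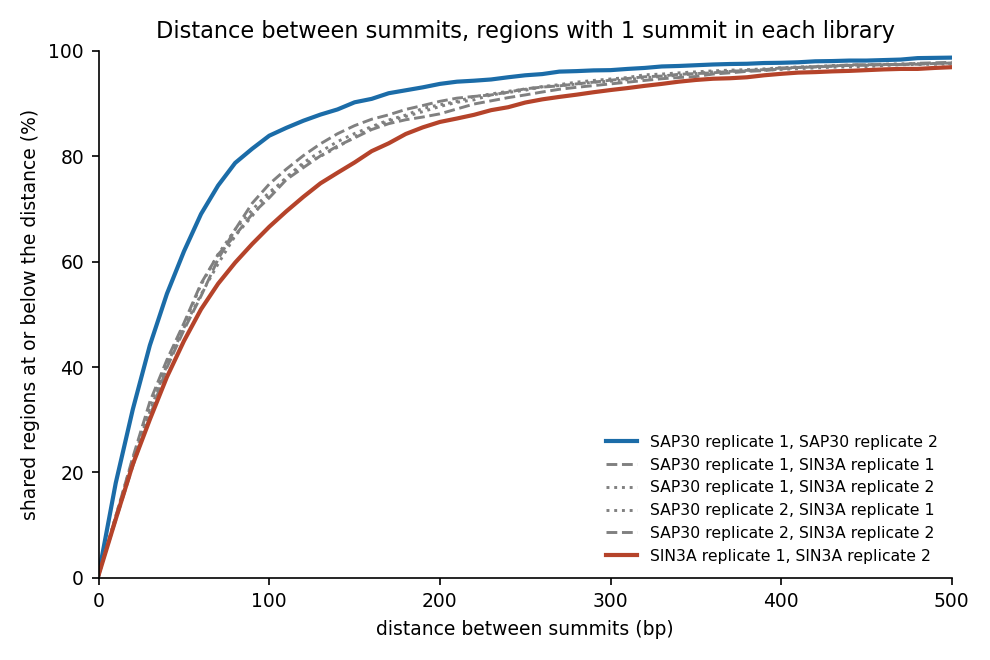
Cumulative share of the 2147 single-summit shared regions (y axis, %) at or below a distance between the summits of 2 libraries (x axis, bp). Blue and red solid lines are the SAP30 and SIN3A replicate pairs and grey lines are the 4 pairs between the proteins (dashed where the replicate numbers match); the grey lines run between the blue and the red, with 72.1% to 74.7% of regions within 100 bp.

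Both proteins sat just downstream of the start site. At the 1352 shared promoters with 1 summit in each library and start sites on 1 strand, the median position was 67 bp and 60 bp downstream for SAP30 and 60 bp and 47 bp for SIN3A. Downstream of the start lay 75.7% and 74.3% of the SAP30 summits and 72.3% and 68.1% of the SIN3A summits. Over all promoter summits, the median distance to the nearest start site in either direction was 121 bp and 134 bp for SAP30 and 116 bp and 109 bp for SIN3A. The SAP30 values were both higher, by 15 bp in the mean (127.5 ± 9.19 against 112.5 ± 4.95 bp, SD, n = 2 each), with an exact two-sided permutation p of 0.333. The direction turned, to 15 bp lower, when the SAP30 lists were limited to the length of the shortest SIN3A list.

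A test of summit position at the 3423 shared promoters with start sites on 1 strand found 7 regions in which the best-ranked summits of the proteins lay apart (limma, Benjamini-Hochberg adjustment, 0.204% called). The median gap was 41 bp between SAP30 replicates, 84 bp between SIN3A replicates and 58.5 bp between the proteins. At NRP1, a coreceptor of VEGF and semaphorins, SAP30 lay at 361 bp and 362 bp from the start site and SIN3A at -471 bp and -465 bp, with negative values upstream. The difference was 829.5 ± 33.2 bp (SE, 2 libraries each) with an adjusted p of 0.0498 in limma. At ANG and RNASE4, secreted ribonucleases with a common promoter, SAP30 lay at 394 bp and 335 bp and SIN3A at -1204 bp and -1202 bp, with an adjusted p of 0.0358 in limma. In the same direction were FOXJ3, BCL9L, PITPNM1 and TMEM63A, the last named after its values were seen. SYNCRIP, an RNA-binding protein, was the reverse, with SAP30 at -808 bp and -836 bp and SIN3A at 809 bp and 758 bp. The best-ranked summits did not overlap at any of the 7. Weaker summits were nearer at several of them. At SYNCRIP a SIN3A summit lay 92 bp and 16 bp from the best SAP30 summit of the same replicate number, and at ANG a SAP30 summit lay 92 bp and 47 bp from the best SIN3A summit. At NRP1 a SIN3A summit lay 28 bp from the SAP30 summit in replicate 1 and 827 bp away in replicate 2. With the replicate number as a block no region passed, with an adjusted p of 0.532 for each of the 7, and without any single library no region passed either. At an unadjusted p under 0.05 there were 206 regions, and 166 with the block.

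At the 43 genes with SIN3A in both libraries and no SAP30 within 1000 bp, SAP30 was farther out. At most of them SIN3A had separate summits near the start site and at the SAP30 site. Both SAP30 libraries had a summit within 3000 bp of a start site at every one of them. The median distance from the start site to the nearest summit was 1318 bp and 1369 bp in the SAP30 libraries and 106 bp and 126 bp in the SIN3A libraries. It was 91 bp and 99 bp for Pol II and 224 bp and 233 bp for SIN3B. The rule used the distances of both proteins, so that these are a description. A SIN3A summit was also within 500 bp of the distant SAP30 summit of the same replicate number at 34 genes in replicate 1 and at 35 in replicate 2. It was there in both at 30 genes and in neither at 4, AHNAK, LNX2, FZD8 and CEMIP2. The SIN3A summit nearest to SAP30 lay over 1000 bp from the start site in both replicates at 27 of these 30 genes. At C10orf95 it was the same summit that counted for the start site, 955 bp and 944 bp downstream. At 21 genes a SIN3A summit was within 100 bp of the SAP30 summit in both replicates. The nearest SAP30 summits lay downstream of the start site at 21 genes, upstream at 20, and 1 on each side at MAP3K1 and PAWR.

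The median rank of the distant SAP30 summits was 6.25% and 7.11%. The best SIN3A summits within 1000 bp of the start site had median ranks of 47.9% and 50.5%. Where SIN3A was also within 500 bp of the SAP30 summit, at 34 and 35 genes, its best rank there had a median of 26.1% and 22.7%. These medians thus cover fewer genes than those for the start site. In both libraries the SIN3A summit at the SAP30 site ranked better than that at the start site at 18 genes. Only the 30 genes with SIN3A at the SAP30 site in both libraries could meet this. The median gap between the SAP30 replicates was 33 bp, and it was under 100 bp at 32 of the 43 genes, against a median of 160 bp between the SIN3A summits nearest to the start site.

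INSIG1, which holds back the processing of the sterol regulator SREBP, had SAP30 1158 bp and 1109 bp downstream of its start site, at ranks of 2.71% and 2.17%. SIN3A lay 71 bp and 135 bp downstream, at ranks of 15.4% and 8.59%, and also at the SAP30 site, at ranks of 49.3% and 10.4%. At INSIG1 both SIN3A libraries thus ranked the start site better. At ING2, SAP30 lay 1333 bp and 1369 bp downstream, at ranks of 4.48% and 2.81%. SIN3A ranked at 14.4% and 11.4% near the start site of ING2 and at 4.42% and 5.26% at the SAP30 site, which it ranked better in both libraries. The sequence of that site is printed above. KAT2B had SAP30 1200 bp and 1207 bp downstream, at ranks of 0.304% and 0.176%. SIN3A ranked at 17.2% and 28.9% within 1000 bp of the start site of KAT2B and at 0.166% and 0.023% at the SAP30 site. KAT2B thus held a site near the top of all 4 lists that the window of 1000 bp left out. JAG1, the Notch ligand, held the SAP30 summits farthest downstream of the 43, at 2410 bp and 2389 bp, and SIN3A was 3 bp and 27 bp from them, at ranks of 2.37% and 3.94%. CEBPB, a transcription factor with a single exon, had SAP30 1583 bp and 1615 bp downstream, and SIN3A ranked there at 1.98% and 3.48%. These sites also ranked better for SIN3A than the start sites did. At FOS, SAP30 lay 1462 bp and 1596 bp upstream, at ranks of 5.14% and 8.55%. SIN3A ranked at 23.9% and 27.5% near the start site of FOS and at 26.7% and 22.7% at the SAP30 site, with no order between the sites. CEMIP2, a cell surface hyaluronidase, had SIN3A at 8.88% and 66.1% near its start site and no SIN3A summit within 963 bp of the SAP30 summits. All genes of this class other than ING2 were named after their values were seen.

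**Figure D5:**
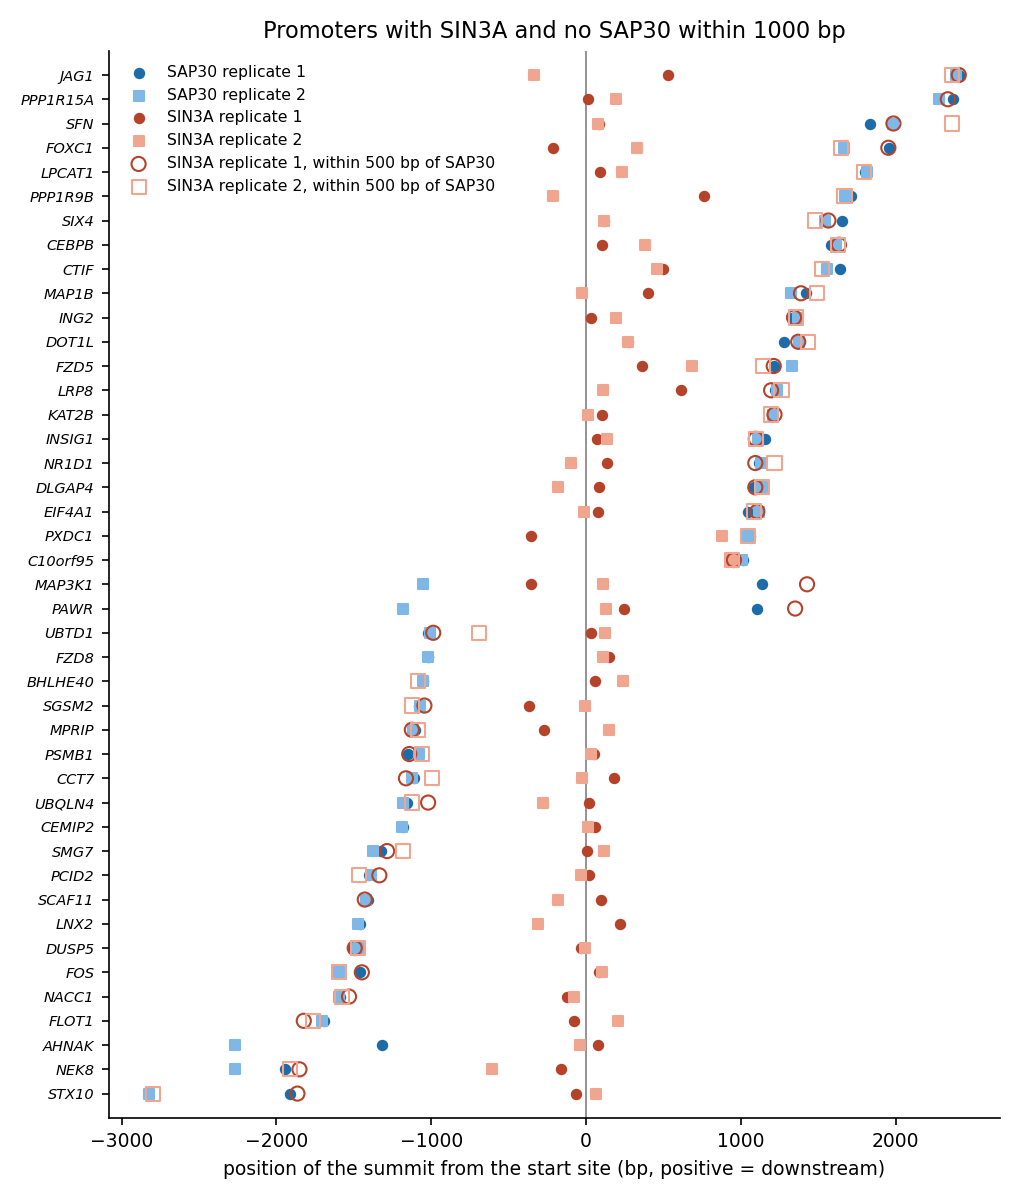
Position of summits from the start site (x axis, bp, positive is downstream) for the 43 genes (rows) with SIN3A in both libraries and no SAP30 within 1000 bp. Filled symbols are the summit nearest to the start site in each library (blue SAP30, red SIN3A, circles replicate 1, squares replicate 2), and open red symbols are SIN3A summits within 500 bp of the SAP30 summit of the same replicate number; these are present for both replicates in 30 rows.

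At the level of regions, 42 of the 59 SIN3A consensus regions without SAP30 had a SAP30 summit within 3000 bp, and 38 of the 59 were at promoters. Of the 17 farther away, 9 lay within 1 Mb of a gap of at least 10000 bp in the assembly, against 17 of all 59. PLEC, a cytoskeletal linker named after its values were seen, was one of the 17, with SIN3A ranks of 2.93% and 1.71% and the nearest SAP30 summits 5254 bp and 5214 bp away. This region lay 317924 bp from such a gap and was one of the 9. No protein-coding gene had SIN3A in both libraries within 1000 bp and no SAP30 summit within 3000 bp. The rule for genes takes summits near any start site of a gene, so it does not describe single start sites.

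The sequence under the summits was described by 300-bp windows and by exact letters searched on both strands. The E-box CACGTG, bound by MAX and its partners, was in 7.76% of windows around the start sites of all protein-coding genes. In start site windows it was in 11.2% for genes with both proteins and in 6.78% for those with SAP30 alone. Around the SAP30 summits of genes with both proteins it was in 16.1% and 16.2% of windows, and around their SIN3A summits in 14.7% and 14.3%. Around the SAP30 summits of genes with SAP30 alone it was in 7.02% and 7.54%. The share fell with SAP30 rank within the class with both proteins, from 28.3% and 28.5% at ranks from 0% to 5% to 15.8% and 15.4% at ranks from 5% to 10% and to 8.15% and 7.75% at ranks from 15% to 20%. At ranks from 15% to 20% the genes with SAP30 alone held it in 6.32% and 8.62%, so that the classes overlapped there. At the 43 genes with SIN3A and no SAP30 within 1000 bp, the distant SAP30 summits held it in 25.6% and 23.3%. A match is only a string of letters and not evidence of a bound factor.

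The median GC content was 70.7% and 70.0% at the SAP30 summits of genes with both proteins, and 69.3% and 68.7% at those with SAP30 alone. In windows around start sites it was 66.7% for genes with both proteins, 65.0% with SAP30 alone and 62.7% for all genes. The ETS letters CCGGAAG were in 19.3% of start site windows of genes with both proteins, in 12.4% of those with SAP30 alone and in 12.1% of all. The TATA box letters TATAAA were in 4.48%, 6.2% and 9.23%. Around the start sites of the 24 mitosis genes, TTTGAA, the letters of the cell cycle homology region, were in 58.3% of windows against 11% of all, and CCAAT in 54.2% against 33.7%. AURKB holds both in the sequence printed above. Around the start sites of the 29 interferon-stimulated genes the median GC content was 51% and the ETS letters were in none.

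Away from start sites the SAP30 summits were of another kind. At 10555 such regions with SAP30 in both libraries and SIN3A in neither, the AP-1 letters TGANTCA were in 43.5% and 43.2% of the windows. They were in 6.43% and 6.39% of the windows of SAP30 regions at start sites and in 5.89% around all start sites. The TEAD letters GGAATG were in 23.3% and 22.9%, against 9.98% and 10.1% for SAP30 regions at start sites and 11.7% around all start sites. The median GC content was 52.7% in both libraries. At the 335 regions away from start sites with all 4 libraries, the AP-1 letters were in 32.2% and 31.0% of windows around the SAP30 summits and in 32.2% and 32.5% around the SIN3A summits. The E-box was in 26.0% and 25.1% around the SAP30 summits there, against 10.1% and 9.71% at regions without SIN3A. No test was run on these shares.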

How the data were processed

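ChIP-Seq libraries of the parental line were grouped by antibody target from the labels. The deposited lists hold 1-bp summits with a score, which the authors' MACS2 gives as the −log10 of a q-value (lowest 1.31). The lists were made per library. The submitters' processing notes name FastQC 0.11.2, Bowtie2 2.3.3.1, Picard, MACS2 2.1.0 and hg19. The control behind each list and the sequencing depth are not given in the sources used here, and both the number of peaks and the score depend on depth. The 6 lists of the knockout line were not used, and the 12 samples of input or total H3 were not analysed here. Highest positions lay within the GRCh37 lengths on 23 of 23 chromosomes.

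Scores were used only as ranks within a list. GENCODE release 44, as lifted to GRCh37, gave the start sites (basic transcripts, genes coding for proteins or long noncoding RNAs). Summits within 1000 bp were merged. Normal scores of ranks and signed positions of best summits were tested with limma 3.58.1 in R 4.3.3, with Benjamini-Hochberg adjustment over all regions. The fits were also run on simulated data. High recovery was required there only for position shifts larger than any called in the main fit. Recovery at the reported shifts is not given here. Same-numbered libraries were taken as paired by the input that the labels give to SAP30 and SIN3A together. The correlation of their deviations was 0.185 for ranks and 0.0132 for positions, so blocked values stand beside the results they change. The members, the gene lists and the 19 motifs were chosen with earlier results of these data known. Genes were named by rule: the 10 best for SAP30 without SIN3A, for SIN3A without SAP30 and over all 4 lists, the extreme regions past the limma threshold, the genes the study followed, all SIN3 subunits and recruiting factors, and the best and worst members of the other lists. Some members of these lists are not reported here. Since no gene met the rule for SIN3A without SAP30 within 3000 bp, the window of 1000 bp was described in its place. The search for SIN3A within 500 bp of the distant SAP30 summits was added after seeing the data. Printed windows were shortened where over 30 bases of an annotated untranslated region would have been shown. Alternatives were other list lengths, merging distances, promoter windows and rank scales, and each library left out.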

Additional observations from a re-analysis of the deposited data

How the results depend on the processing

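With 2 libraries a protein and unknown depth, lists of unequal length limit every count of absence, and a missing summit is a call below the threshold of the peak caller. The cause of the changes below was not tested. Leaving out each library in turn, the count of regions past the rank test (1) ranged from 0 (without SAP30 replicate 2) to 781 (without SIN3A replicate 1), with 602 without SIN3A replicate 2 and 3 without SAP30 replicate 1. In these fits the lone library is assumed to vary like the pair of the other protein. It was 50 with the replicate block by which the libraries are paired, 2 with merging within 2000 bp (EEF1A1 and PLEC), and 0 with rank percentages (400 at an unadjusted p under 0.05), with ranks of the full lists (2711) and with 1 summit in each library (174). The count of regions past the position test (7) ranged from 0 to 0 without each library and was 0 with the replicate block of the paired fit, 0 with equal list lengths, 0 with merging within 500 bp, 17 within 2000 bp and 1 (RUFY2) with 1 summit in each library. Genes with SAP30 and no SIN3A (3454) were 917 with SAP30 lists of the length of the shortest SIN3A list. Genes with SIN3A and no SAP30 (43) ranged from 53 to 84 without each library (66 without SAP30 replicate 1, 84 without SAP30 replicate 2), and were 19 with the better-ranked 50% of each list, 68 with equal lengths, 173 with a window of 500 bp, 1 (CDHR4) with 3000 bp and 66 with either replicate. Best-ranked SAP30 regions without SIN3A (260) ranged from 585 (without SAP30 replicate 1) to 843 (without SIN3A replicate 1), with 712 without SAP30 replicate 2 and 685 without SIN3A replicate 2, and were 6 with equal lengths, 876 with either replicate and 8 in the best 10%. The median distance between the proteins (83.75 bp, the mean of 4 pairs) was 63.75 bp with the better-ranked 50%, 75 bp with equal lengths and 69.25 bp between best summits. The difference in start site distance (15 bp) was -15 bp with equal lengths and kept its direction under the other 8 settings.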
